A study of Mus musculus with 2 samples.

Results

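The 33 genes described here encode the glycolytic pathway and genes that low oxygen induces through the hypoxia-inducible factors. They were taken by symbol from the 32285 genes of a droplet single-cell RNA-seq count matrix, and all 33 were found in it. The list holds 4 transporters of glucose or lactate, 14 enzymes from hexokinase to lactate dehydrogenase, 3 regulators of flux, HIF-1alpha with 2 of its prolyl hydroxylases, and 9 other hypoxia response genes.

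Glycolysis splits glucose into pyruvate, and lactate dehydrogenase turns pyruvate into lactate, which leaves the cell through monocarboxylate transporters. When oxygen is plentiful, the EGLN prolyl hydroxylases mark HIF-1alpha for destruction. When it is scarce, HIF-1alpha accumulates, pairs with ARNT and raises glucose transporters, most glycolytic enzymes, the angiogenic factor VEGF-A and, as a brake on itself, EGLN3. Neutrophils draw most of their ATP from glycolysis, and T cells raise the pathway when they are activated and divide.

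Both libraries came from tumour-bearing lungs of chimeric mice. The hosts carried KrasLSL-G12D/+ and Lkb1fl/fl, alleles that inhaled adenovirus with Cre recombinase switches on and deletes, and they had been lethally irradiated before the bone marrow transfer. In the group labelled WTKL the donor marrow was Tmem173fl/fl, with no Cre. In the group labelled LYZKL it was Tmem173fl/fl;Lyz2-Cre, in which the Lyz2 promoter drives Cre in neutrophils, monocytes and macrophages to delete Tmem173, the gene of the innate DNA-sensing adaptor STING. Cells were taken 8 weeks after the virus. Tamoxifen appears among the treatments of WTKL but not among those of LYZKL, so the genotype and that agent cannot be told apart. The labels do not give the mice's age, how many mice were pooled, or how many host blood cells remained.

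There was 1 library per group, so no difference between the groups has a replicate check and no test of the groups is possible. Levels are given as CPM, the unique molecular identifiers (UMIs) of a gene summed over the cells of a gate, per 1000000 UMIs of that gate. Differences are log2 of the CPM in LYZKL over that in WTKL, with an exact conditional binomial 95% interval. They carry counting error alone, and the variation from mouse to mouse is not in them. A gene was measured in a gate when both libraries together held at least 30 of its UMIs there, and 1.5-fold is the size used to call a gene higher or lower.

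The libraries held 12204 barcodes in WTKL and 13607 in LYZKL, with 77181312 and 93584629 UMIs, while the labels state 6609 and 7202 cells. After the filters 12003 and 13451 barcodes remained, with median UMIs of 4840 and 5327. The cells are labelled as T cells sorted for CD4 or CD8, and T cell markers placed 66.4% and 64.0% of them in the T gate (7968 and 8609 cells). Markers also placed 921 and 1059 cells in a neutrophil gate, 120 and 173 in a macrophage gate that includes monocytes, and 452 and 336 in a B cell gate. The remaining 21.2% and 24.3%, with too few markers or markers of several types, were left out, and 100 barcode sequences occurred in both libraries. Tmem173 read 17.9 CPM in WTKL neutrophils and 2.99 CPM in LYZKL neutrophils (59 and 13 UMIs), but 35.6 and 33.6 CPM in macrophages (43 and 60 UMIs), 28.1 and 47.3 CPM in T cells and 19.5 and 32.7 CPM in B cells. Which exons the floxed allele removes is not stated in the labels, and reads from the 3′ end need not come from them.

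The DNA letters bound by HIF, known as the hypoxia response element, have the core ACGTG or GCGTG. Each was searched on both strands of the 250 bases before the start in the RefSeq promoters of GRCm38.p6, with overlapping matches kept, so that a CACGTG counts once on each strand. Of the 33 genes 31 had an entry there. Slc2a3 and Ndrg1 had none. At least 1 core was present before 28 of the 31 genes (90.3%), against 41.5% of all 27025 genes in the RefSeq table. ACGTG was found before 19 of them (61.3%, against 18.5% of all genes) and GCGTG before 21 (67.7%, against 30.9%). Neither was found before Gpi1, Tpi1 and Mif. A match to 5 letters is a description of the sequence and not evidence of binding.

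A few of these stretches are printed because their genes stood at the 2 ends of the neutrophil comparison: P4ha1, Egln3 and Hk2 were lower in LYZKL neutrophils, and Gpi1 and Hk1 were higher. Ankrd37, which differed more than Hk2, had 2 ACGTG and 2 GCGTG matches. It is not printed because its window lies within the annotated span of Ankrd37 itself. Each is the run of 250 bases before the gene's start, written 5′ to 3′ on the gene's strand, with matches to either core or its reverse complement in capitals.
P4ha1, chr10:59323046-59323295, plus strand: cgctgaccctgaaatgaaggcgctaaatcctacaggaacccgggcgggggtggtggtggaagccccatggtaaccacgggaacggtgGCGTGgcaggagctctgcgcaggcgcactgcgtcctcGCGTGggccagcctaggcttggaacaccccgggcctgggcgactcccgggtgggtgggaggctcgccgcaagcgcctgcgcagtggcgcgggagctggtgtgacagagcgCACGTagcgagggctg
Egln3, chr12:54203875-54204124, minus strand: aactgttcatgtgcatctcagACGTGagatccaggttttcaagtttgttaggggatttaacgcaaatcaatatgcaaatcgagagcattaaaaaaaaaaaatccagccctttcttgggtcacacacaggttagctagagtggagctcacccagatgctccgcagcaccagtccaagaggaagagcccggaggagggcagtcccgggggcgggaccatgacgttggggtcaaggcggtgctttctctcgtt
Hk2, chr6:82774455-82774704, minus strand: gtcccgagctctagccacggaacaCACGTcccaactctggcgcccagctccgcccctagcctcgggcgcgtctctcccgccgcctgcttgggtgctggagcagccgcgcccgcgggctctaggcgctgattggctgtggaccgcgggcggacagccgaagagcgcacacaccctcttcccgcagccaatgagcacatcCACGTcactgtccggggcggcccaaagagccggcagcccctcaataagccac
Gpi1, chr7:34230337-34230586, minus strand: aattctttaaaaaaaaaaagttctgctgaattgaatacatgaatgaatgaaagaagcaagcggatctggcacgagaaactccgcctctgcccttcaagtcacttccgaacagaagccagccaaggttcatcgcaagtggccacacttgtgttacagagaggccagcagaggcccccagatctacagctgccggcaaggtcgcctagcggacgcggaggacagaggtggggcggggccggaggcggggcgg
Hk1, first of its listed promoters, chr10:62379909-62380158, minus strand: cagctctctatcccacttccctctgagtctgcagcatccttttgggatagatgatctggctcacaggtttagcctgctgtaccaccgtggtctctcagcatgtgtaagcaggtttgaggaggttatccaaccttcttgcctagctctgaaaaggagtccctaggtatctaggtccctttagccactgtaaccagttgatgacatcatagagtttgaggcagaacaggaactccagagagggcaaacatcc
P4ha1, the prolyl hydroxylase subunit needed to fold collagen, had 1 ACGTG match and 2 GCGTG matches. Egln3 had 1 ACGTG match, at bases 229 to 225 before the start. Hk2, the inducible hexokinase, had 2 ACGTG matches, the nearer at bases 52 to 48. Gpi1, glucose-6-phosphate isomerase, and this promoter of Hk1, the hexokinase of most tissues, had none, while a second Hk1 promoter at chr10:62340422-62340671 had 3 GCGTG matches. Tpi1 and Mif, not printed, also had none, and both were lower in LYZKL neutrophils, with log2 differences of -0.46 and -0.47. A lower level thus did not go with a match in every gene.

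Levels of the list differed by cell type. Neutrophils had the highest level of 9 of the 33 genes in both libraries, macrophages of 9, T cells of 5 and B cells of 0, and B cells had the lowest level of 20. The full order of the 4 gates was the same in both libraries for 17 genes. The genes with a neutrophil level at least 2-fold above every other gate in both libraries were the glucose transporters Slc2a1 and Slc2a3, the lactate exporter Slc16a3 and Pfkfb3, which makes the activator of phosphofructokinase. These orders compare 1 gene across gates within a library, and the 2 libraries are not replicates. The same counts were not made over all genes, so they do not set the list apart. Ribosomal protein genes took 4.63% and 4.67% of UMIs in neutrophils of WTKL and LYZKL, and 15.6% and 16.3% in macrophages. They took 21.4% and 21.5% in B cells and 25.2% and 25.4% in T cells. The part of these shares in the orders was not tested.

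**Figure D1:**
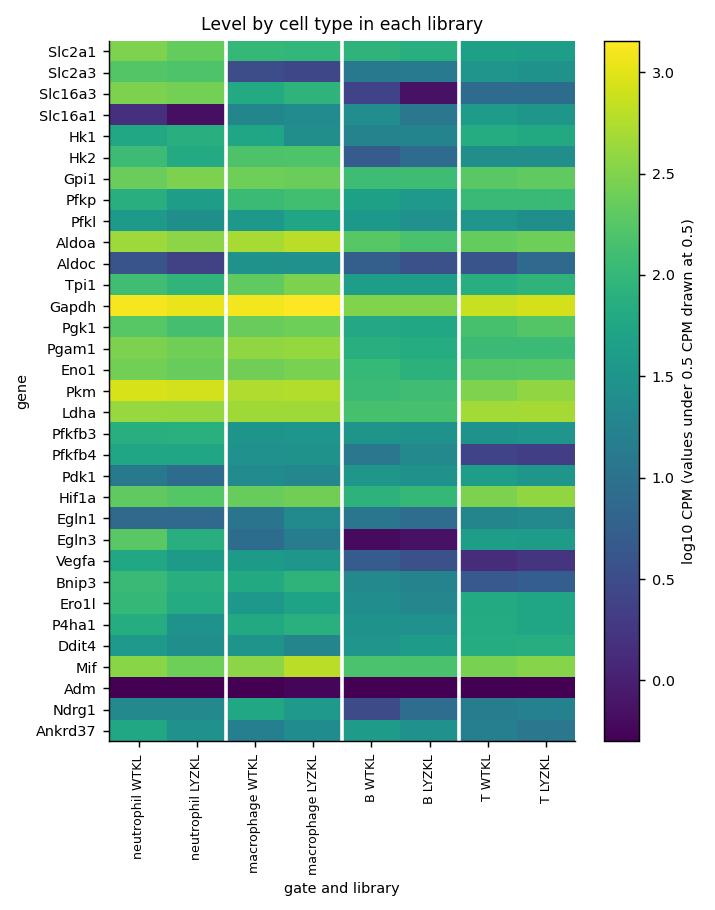
Level of each of the 33 genes (rows) in the 4 gates of each library (columns), drawn as log10 CPM. Slc2a1, Slc2a3, Slc16a3 and Pfkfb3 are brighter in the neutrophil columns than elsewhere in their rows, and Adm is at or near the bottom of the scale in every column.

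Among the transporters, Slc16a3 (MCT4, which exports lactate) and Slc16a1 (MCT1, which carries lactate either way) were found in different cells. Slc16a3 read 294 and 268 CPM in neutrophils of WTKL and LYZKL, 65.3 and 88.0 CPM in macrophages, 8.17 and 8.44 CPM in T cells and 2.51 and 0.728 CPM in B cells. Slc16a1 read 1.52 and 0.690 CPM in neutrophils (5 and 3 UMIs), 19.0 and 23.0 CPM in macrophages, 25.1 and 11.6 CPM in B cells and 39.1 and 34.3 CPM in T cells. Neutrophils thus had the highest Slc16a3 and the lowest Slc16a1 of the 4 gates in both libraries. Slc2a3 (GLUT3) read 170 and 159 CPM in neutrophils, 32.9 and 30.2 CPM in T cells and 12.6 and 13.1 CPM in B cells. In macrophages it read only 3.31 and 2.80 CPM (4 and 5 UMIs), against 3.93 and 1.58 CPM that free neutrophil RNA would give if it followed the neutrophil markers S100a8 and S100a9. Slc2a1 (GLUT1) fell in one order in both libraries: neutrophils at 308 and 215 CPM, macrophages at 99.2 and 98.1, B cells at 89.8 and 74.2, and T cells at 46.4 and 43.1. The intervals of Slc2a1 in macrophages and B cells overlapped, so those neighbours were not separated.

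Glycolytic enzymes were spread more evenly. Gapdh read 1296 and 1138 CPM in neutrophils, 1256 and 1431 CPM in macrophages, 723 and 869 CPM in T cells and 321 and 317 CPM in B cells, so that the 2 myeloid gates changed places between libraries. Ldha, which makes lactate, was close in 3 gates: T cells at 467 and 486 CPM, macrophages at 453 and 458 CPM, and neutrophils at 420 and 411 CPM. B cells stood apart with 139 and 141 CPM of Ldha. Hk2 was highest in macrophages, at 157 and 160 CPM, and lowest in B cells, at 5.02 and 8.00 CPM. Aldoc, the aldolase of brain, was at least 2-fold higher in macrophages (29.8 and 28.0 CPM) than in any other gate.

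Hif1a itself was highest in T cells, at 294 and 382 CPM, then macrophages at 227 and 253, neutrophils at 202 and 174, and B cells at 85.4 and 100.4. Egln3 read 185 and 75.5 CPM in neutrophils and 43.9 and 40.5 CPM in T cells, but only 1 UMI in the B cells of each library (0.628 and 0.728 CPM). In the macrophage gate Egln3 had 10 and 26 UMIs, or 8.27 and 14.6 CPM, against 4.27 and 0.751 CPM that neutrophil RNA at the level of S100a8 and S100a9 there would give. Adm, the vasodilator adrenomedullin, was not measured in any of the 4 gates: it had no UMI in neutrophils or B cells, 0 and 1 in macrophages, and 4 and 10 in T cells. A count of 0 in neutrophils allows up to 0.909 CPM in WTKL and 0.690 CPM in LYZKL.

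In neutrophils the list was lower in LYZKL. Of 30 measured genes 25 were lower and 5 higher, and the median log2 difference was -0.39, against -0.02 over all 8227 genes measured in neutrophils, of which 52.0% were lower and 48.0% higher. At 1.5-fold, 8 of the 30 were lower and 0 higher, where 8.82% of all neutrophil genes were lower by that much and 5.53% higher. Hypoxia response genes made up most of the 8: Egln3, P4ha1, Ankrd37, Vegfa and Ero1l, with Hk2, Pfkp and Pdk1 from glycolysis and its regulators. The 33 genes together took 0.656% of neutrophil UMIs in WTKL and 0.552% in LYZKL.

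**Figure D2:**
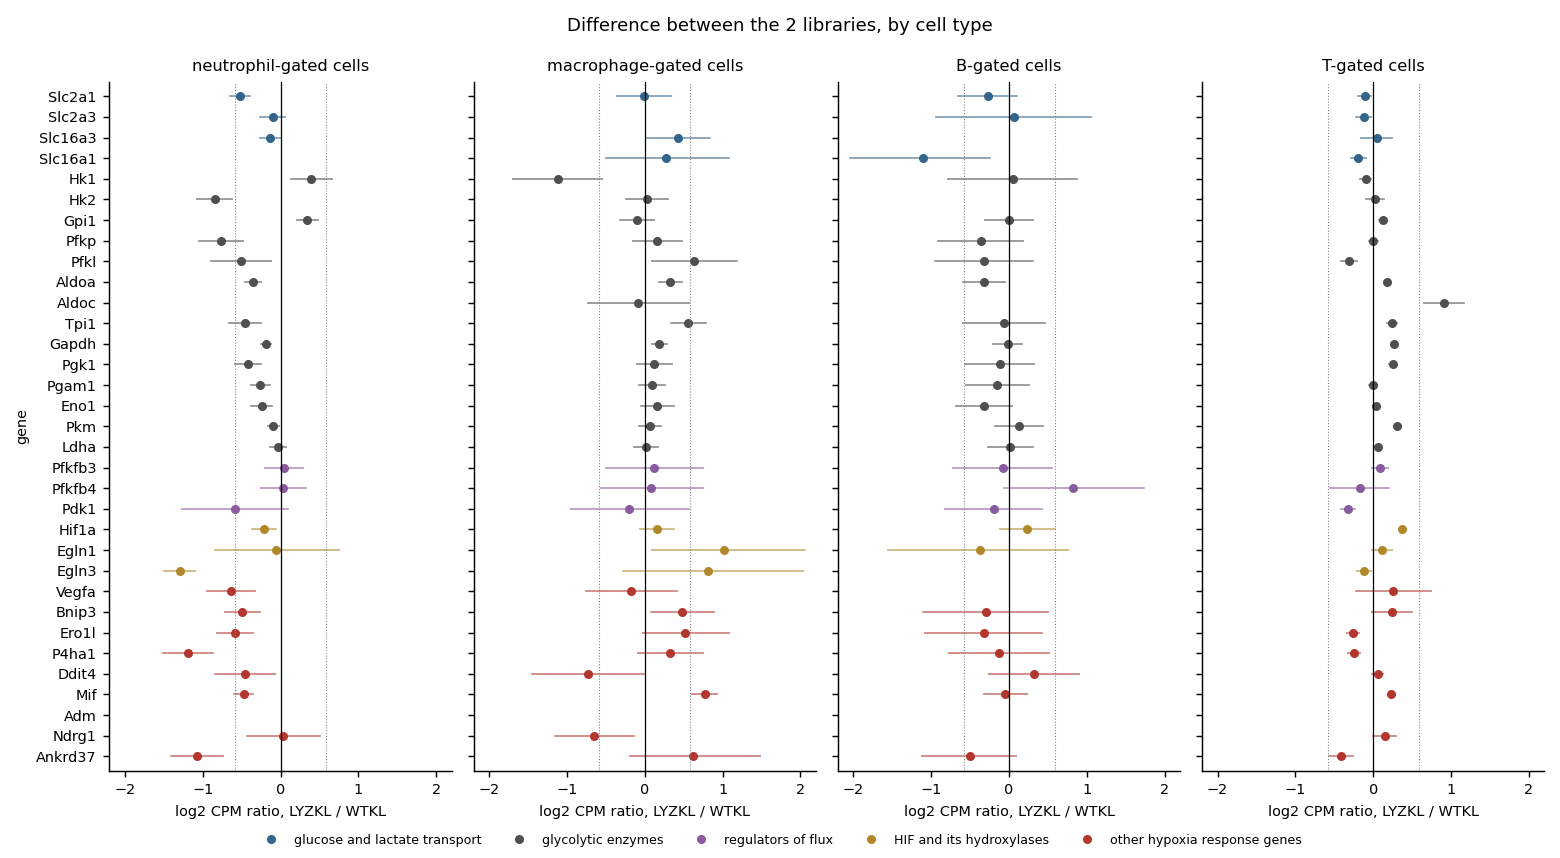
Log2 CPM ratio of LYZKL over WTKL (x axis) for each measured gene (y axis) in the 4 gates, with 95% intervals for counting error as bars and 1.5-fold as dotted lines. In neutrophils 25 of 30 points lie left of 0, in macrophages 23 of 31 lie right of it, and in T cells most lie near it.

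Egln3, which hydroxylates HIF-1alpha and is itself a HIF target, differed most in neutrophils. WTKL held 611 of its UMIs, or 185 CPM, and LYZKL 328, or 75.5 CPM. The level was 2.45-fold lower in the latter, a log2 difference of -1.29 (95% interval -1.49 to -1.10). The gene lies at chr12:54178981-54203860 on the minus strand (GRCm38). P4ha1 (chr10:59323296-59373304, plus strand) read 68.8 and 30.1 CPM, a difference of -1.19 (-1.51 to -0.87). Ankrd37 (chr8:45996902-46005707, minus strand), an ankyrin repeat gene induced by HIF, read 59.1 and 28.1 CPM, a difference of -1.07 (-1.41 to -0.74). These 3 were more than 2-fold lower in LYZKL, and no other measured gene of the list was in neutrophils.

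The vascular and redox genes of the hypoxia response differed by less. Vegfa read 59.7 CPM in WTKL neutrophils and 38.4 CPM in LYZKL neutrophils, a log2 difference of -0.64 (-0.94 to -0.33). Ero1l, the oxidase that drives disulfide formation in the endoplasmic reticulum, read 100.3 and 66.7 CPM, a difference of -0.59 (-0.82 to -0.36). Bnip3, a mitophagy receptor, read 108 and 76.6 CPM, a difference of -0.49 (-0.71 to -0.27). Mif, a cytokine, read 347 and 250 CPM, and Ddit4, an inhibitor of mTORC1, read 36.1 and 26.2 CPM, with differences of -0.47 (-0.60 to -0.35) and -0.46 (-0.84 to -0.08). Ndrg1, a stress gene also induced by hypoxia, was level at 20.9 and 21.4 CPM, a difference of 0.03 (-0.43 to 0.50). Mif and Vegfa depended on the gate: with 2 neutrophil markers required in place of 3, the differences were -0.15 and -0.21, and with no marker of another type allowed Vegfa differed by -1.29. Ero1l fell short of 1.5-fold under these gates, at -0.49 and -0.47. With 2 markers required the gate held 987 WTKL and 1355 LYZKL cells, against 921 and 1059 with 3. It thus added more cells in LYZKL than in WTKL, and the part of this in the neutrophil differences was not tested.

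The glucose transporter Slc2a1 and the enzymes Hk2 and Pfkp, which act early in the pathway, were lower. The hexokinases Hk1 and Hk3, given further on, were higher, so the genes of the hexokinase step did not differ in 1 direction. Pkm and Ldha at the end of the pathway differed little. Slc2a1 read 308 and 215 CPM in neutrophils, a difference of -0.52 (-0.65 to -0.39), whereas Slc2a3 differed by -0.10 (-0.26 to 0.06) and Slc16a3 by -0.13 (-0.26 to -0.01). Hk2 (chr6:82725025-82774454, minus strand) read 116 and 64.7 CPM, a difference of -0.84 (-1.07 to -0.62), and Pfkp, the platelet form of phosphofructokinase, 74.5 and 43.9 CPM, a difference of -0.76 (-1.04 to -0.48). Both fell short of 1.5-fold in the 311 and 373 neutrophils with no marker of another type, at -0.51 and -0.39. Pfkl, another form of phosphofructokinase, read 37.0 and 26.0 CPM in the neutrophil gate, a difference of -0.51. Further down, Aldoa differed by -0.35, Tpi1 by -0.46, Pgk1 by -0.42, Pgam1 by -0.26 and Eno1 by -0.24, each with an interval below 0. Gapdh read 1296 and 1138 CPM, a difference of -0.19 (-0.25 to -0.13), Pkm differed by -0.10 (-0.17 to -0.03), and Ldha by -0.03 (-0.13 to 0.07).

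A pair of enzymes went the other way in neutrophils. Hk1 read 58.2 CPM in WTKL and 76.6 CPM in LYZKL, a difference of 0.40 (0.14 to 0.66), so the constitutive hexokinase was higher where the inducible Hk2 was lower. Gpi1, the next enzyme, read 232 and 294 CPM, a difference of 0.34 (0.21 to 0.48), which was 0.16 with 2 markers required and 0.81 with no marker of another type. Among Ccl3-type neutrophils, one of the kinds described further on, Gpi1 read 144 and 122 CPM, a difference of -0.23 (-0.52 to 0.05). Granule-type cells, which had the most Gpi1, were 13.0% of WTKL and 18.1% of LYZKL neutrophils, and the part of this in the difference was not tested. Among the regulators, Pfkfb3 differed by 0.05 (-0.19 to 0.29) and Pfkfb4 by 0.04 (-0.25 to 0.32). Pdk1, the kinase that closes pyruvate dehydrogenase, read 12.4 and 8.28 CPM from 41 and 36 UMIs, and its interval of -1.27 to 0.10 included 0. Hif1a read 202 and 174 CPM, a difference of -0.22 (-0.37 to -0.06), and Egln1 differed by -0.05 (-0.84 to 0.75).

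A further list, of HIF system genes and other hypoxia targets, did not share the shift as a whole. It mixes parts of the HIF system, such as Arnt, with targets, so its counts do not describe targets alone. Of 22 measured in neutrophils, 10 were higher and 12 lower, with a median of -0.01. Of all genes measured in neutrophils 48.0% were higher and 52.0% lower. Gys1, glycogen synthase, read 10.0 and 3.68 CPM from 33 and 16 UMIs, while Hilpda, a lipid droplet protein induced by HIF, read 215 and 329 CPM, a difference of 0.62 (0.49 to 0.75). Nampt, which makes an NAD precursor, read 235 and 295 CPM. Higd1a and Fam162a, which act in mitochondria, differed by -0.38 and -0.40. Of 11 other glycolysis and pyruvate genes 5 were higher and 6 lower (median -0.06), with the myeloid hexokinase Hk3 at 76.4 and 106 CPM. Of 7 pentose phosphate genes 4 were higher, among them G6pdx, the entry enzyme of that pathway, at 39.7 and 56.6 CPM. With Hilpda higher and Egln3 lower, the genes induced by HIF did not all differ in 1 direction in neutrophils.

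Several measures differed beside these values in neutrophils. Among 16 measured genes of the immediate early response and of heat shock, 14 read lower in LYZKL (median -0.32), with Egr1 at 833 and 432 CPM, and of 12 mitochondrially coded genes 11 were lower (median -0.31). Over all genes measured in neutrophils 52.0% were lower. Median UMIs per neutrophil were 3331 and 3800. The 4 immunoglobulin and class II genes that mark B cells summed to 544 and 315 CPM in neutrophils, and the 3 plasma cell genes to 276 and 125 CPM. The 3 haemoglobin genes had no UMI. The part of these measures in the differences was not tested.

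The share of cells in which a gene was seen gave the same order for Egln3, P4ha1, Hk2 and Slc2a1, and was less clear for some others. Each neutrophil was thinned to 2000 UMIs, which left out 77 of 921 and 78 of 1059 cells. Egln3 was then seen in 21.3% of WTKL neutrophils (exact binomial 95% interval 18.6 to 24.2) and 11% of LYZKL neutrophils (9.12 to 13.1), and in 0.247% and 0.328% of B cells, which have little of it. Without thinning these neutrophil shares were 29.0% and 16.7%. P4ha1 was seen in 10.8% and 5.40% of thinned neutrophils, Hk2 in 16.1% and 9.89%, and Slc2a1 in 40.6% and 30.2%. Vegfa was seen in 7.82% and 6.42% and Bnip3 in 17.7% and 14.2%, each with overlapping intervals. Egln1 was seen in 1.42% and 2.34%, the other way from its CPM, also with overlapping intervals. The share of cells with several hypoxia genes was lower in LYZKL, as were the shares for Egln3 and P4ha1 taken singly. Whether the genes met more or less often than their single shares would give was not tested. Of 10 genes, Egln3 and the 9 other hypoxia response genes, at least 3 were seen together in 16.9% of 844 WTKL neutrophils and 8.26% of 981 LYZKL neutrophils. At least 4 were seen in 8.89% and 2.55%. These 10 genes were chosen after the data were seen. Egln3, which differed most, was put among them and Hif1a and Egln1 were not, so part of the lower share is built in. Adm, also among the 10, had no UMI in neutrophils.

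**Figure D3:**
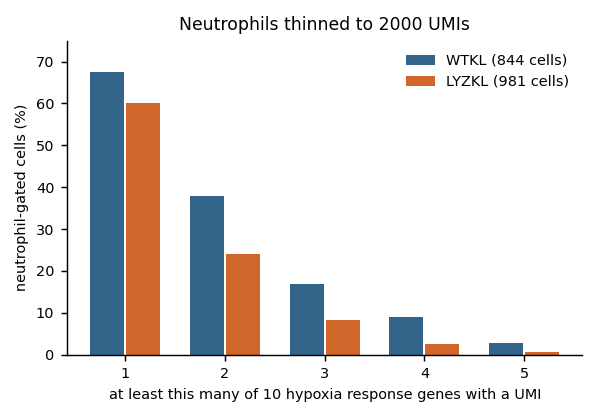
Percentage of neutrophil-gated cells (y axis), thinned to 2000 UMIs, with a UMI of at least the given number of 10 hypoxia response genes (x axis), in WTKL and LYZKL. The LYZKL bar is lower at every number shown from 1 up, from 67.4% against 60.1% for at least 1 gene to 8.89% against 2.55% for at least 4. The 10 genes were chosen after the data were seen and include Egln3, which differed most.

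The difference was largest in the upper tail of single neutrophils. Summed over the 33 genes, the median neutrophil had 54.9 UMIs per 10000 in WTKL and 48.7 in LYZKL, and the 95th percentile was 161 and 101. Neutrophils of WTKL thus had a larger share of cells with very high levels, while the lower quartiles, 36.9 and 33.5, lay closer. These sums were not thinned, and median UMIs per neutrophil were 3331 and 3800. Among the kinds described next, the 95th percentile was 173 and 101 in Ccl3-type cells and 110 and 92.9 in granule-type cells. In cells with neither gene set, 28.3% and 15.4% of neutrophils, it was 188 and 122. The part of depth and of make-up in the tail was not tested.

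Neutrophils were then split by granule genes (Ngp, Camp, Ltf, Mmp8 and Lcn2, made early in neutrophil life) and by Ccl3, Ccl4, Hcar2 and Siglecf, with at least 2 genes of a set required and fewer than 2 of the other. Granule-type cells made up 13.0% of WTKL and 18.1% of LYZKL neutrophils, Ccl3-type cells 44.8% and 45.3%, and cells with fewer than 2 genes of either set 28.3% and 15.4%. The rest had 2 or more of both and were not compared as a gate of their own. The part of this make-up in the differences of the whole neutrophil gate was not tested. Within WTKL and within LYZKL alike, the 2 types differed in how they held the list. Of 28 measured genes 16 were higher in Ccl3-type than in granule-type cells of both libraries and 7 lower, where 62.9% of all genes were higher and 20.4% lower. At 1.5-fold 9 were higher and 4 lower, against 32.4% and 7.86% of all genes, so the share of higher genes was near the background.

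Granule-type neutrophils had more of the transporters Slc2a3 and Slc16a3, but not of Slc2a1 in both libraries, and no UMI of Slc16a1. Slc2a3 read 372 CPM in granule-type and 74.8 CPM in Ccl3-type cells of WTKL, and 321 and 49.6 CPM in LYZKL. Slc16a3 read 397 and 205 CPM in WTKL and 444 and 122 CPM in LYZKL, and Gpi1 read 429 and 144 CPM in WTKL and 582 and 122 CPM in LYZKL. Pfkfb4, which also sets the level of the phosphofructokinase activator, was the remaining gene lower by 1.5-fold in Ccl3-type cells of both libraries. Ccl3-type neutrophils had more of Mif, at 452 CPM against 96.3 CPM in WTKL and 341 against 96.8 CPM in LYZKL. Vegfa read 92.2 against 11.8 CPM in WTKL and 62.3 against 15.0 CPM in LYZKL, and Hk2 174 against 43.9 CPM and 103 against 18.0 CPM.

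The list was lower in LYZKL in both kinds of neutrophil with fewer than 2 granule genes. In Ccl3-type cells 27 of 29 measured genes were lower in LYZKL and 2 higher, where 46.1% of all genes were lower and 53.9% higher. By 1.5-fold 9 were lower and 0 higher (9.99% and 12.2% of all genes), with a median of -0.48 against 0.04 over all genes. In cells with neither set 23 of 28 were lower and 5 higher (49.5% and 50.5% of all genes). By 1.5-fold 10 were lower and 0 higher (9.37% and 8.14% of all genes), with a median of -0.36 against 0.00 over all genes. In granule-type cells 17 of 25 were higher and 8 lower (49.8% and 50.2% of all genes), 2 each by 1.5-fold (7.16% and 7.46% of all genes), with a median of 0.08. Whether these gates differ from each other was not tested. Egln3 was lower in each: 241 and 106 CPM in Ccl3-type cells, 262 and 119 CPM in cells with neither set, and 57.5 and 28.9 CPM in granule-type cells. Slc2a1 read 321 and 180 CPM in Ccl3-type cells but 248 and 255 CPM in granule-type cells. Ankrd37 read 61.0 and 29.4 CPM in Ccl3-type cells, and 6.76 and 31.9 CPM in granule-type cells, the latter from 4 and 32 UMIs. Gapdh, at 1218 and 838 CPM in Ccl3-type cells, differed there by -0.54 (-0.64 to -0.44), and by 0.03 (-0.09 to 0.15) in granule-type cells.

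**Figure D4:**
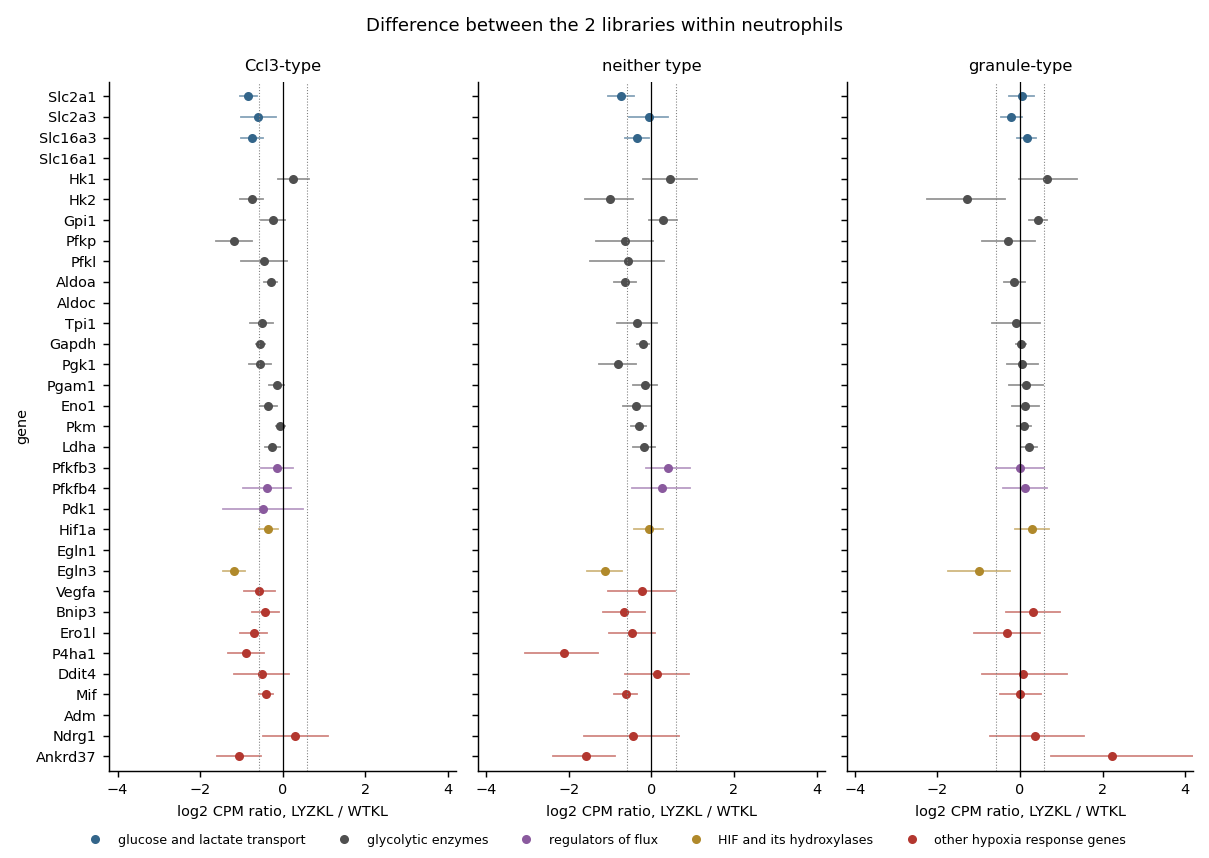
Log2 CPM ratio of LYZKL over WTKL (x axis) for each measured gene (y axis) within Ccl3-type neutrophils, neutrophils with neither gene set and granule-type neutrophils, with 95% intervals for counting error as bars. In Ccl3-type cells 27 of 29 points lie left of 0, and in granule-type cells 17 of 25 lie right of it.

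Macrophages showed the opposite balance. Of 31 measured genes 23 were higher in LYZKL and 8 lower, with a median of 0.15 against -0.08 over all 7368 genes, of which 41.5% were higher and 58.5% lower. At 1.5-fold 5 were higher and 3 lower, where 7.91% of all macrophage genes were higher and 12.3% lower. Mif (chr10:75859353-75860240, minus strand) read 364 and 620 CPM, a difference of 0.77 (0.61 to 0.93). Pfkl, the liver form of phosphofructokinase, read 34.7 and 53.8 CPM, a difference of 0.63 (0.09 to 1.19), and Egln1, the main HIF hydroxylase, 10.7 and 21.9 CPM from 13 and 39 UMIs. The intervals of Egln3 (-0.28 to 2.03) and Ankrd37 (-0.19 to 1.48), the other genes past 1.5-fold, included 0.

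Of the enzymes, Tpi1, which interconverts the triose phosphates, read 204 and 301 CPM in macrophages, a difference of 0.56 (0.34 to 0.78), and Aldoa 500.3 and 628 CPM, a difference of 0.33 (0.19 to 0.47). Hk1 was lower, at 54.6 and 25.2 CPM, a difference of -1.11 (-1.69 to -0.54), but of -0.41 where up to 2 markers of another type were allowed. Ndrg1 read 57.1 and 36.4 CPM and Ddit4 30.6 and 18.5 CPM, differences of -0.65 (-1.16 to -0.14) and -0.73 (-1.45 to -0.01). Bnip3 read 63.7 and 88.6 CPM, a difference of 0.48 (0.07 to 0.89). Slc2a1 (99.2 and 98.1 CPM), Hk2 (157 and 160 CPM), Ldha (453 and 458 CPM) and Hif1a (227 and 253 CPM) had intervals that included 0, as did Vegfa, Pfkfb3 and Pdk1.

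The macrophage gates also differed in their make-up. Cells with both Saa3 and Cfb, genes of inflammatory macrophages, were 41.7% of the gate in WTKL and 70.5% in LYZKL, and cells with Vcan or Ccl17, genes of monocytes and of cells derived from them, 31.7% and 6.36%. Within the Saa3-type cells (50 and 122 cells) 18 of 31 genes were higher and 13 lower (46.9% and 53.1% of all genes), with 1 higher and 2 lower by 1.5-fold (9.18% and 9.26%) and a median of 0.06 against -0.03 over all genes. Among these cells Mif read 547 and 695 CPM, a difference of 0.35 (0.17 to 0.53). Within WTKL, Mif read 547 CPM in Saa3-type and 159 CPM in Vcan- or Ccl17-type cells. Neutrophil markers summed to 6231 and 5473 CPM in the macrophage gate, against 124898 and 133050 CPM in neutrophils. In a wider gate of 319 and 444 cells, chosen after the data were seen, 24 of 31 genes were higher but 0 passed 1.5-fold in either direction, where 4.82% and 5.76% of all genes did. There the differences of Mif, Tpi1 and Hk1 were 0.52, 0.29 and -0.25.

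B cells differed little. Of 26 measured genes 7 were higher and 19 lower, with a median of -0.12 against -0.02 over all genes, of which 47.2% were higher and 52.8% lower. At 1.5-fold 1 was higher and 1 lower, against 5.29% and 5.79% of all B cell genes. Slc16a1 read 25.1 and 11.6 CPM from 40 and 16 UMIs, a difference of -1.11 (-2.04 to -0.24). Pfkfb4 read 11.9 and 21.1 CPM, and its interval of -0.06 to 1.74 included 0. Aldoa read 181 and 145 CPM, a difference of -0.32 (-0.59 to -0.05), while Gapdh, Ldha, Hif1a, Mif and Pdk1 had intervals that included 0.

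T cells gave the most precise values and small differences. Of 32 measured genes 21 were higher in LYZKL and 11 lower, with a median of 0.05 against 0.03 over all 14452 genes, of which 54.9% were higher and 45.1% lower. At 1.5-fold 1 was higher and 0 lower, against 5.54% and 4.87% of all T cell genes. That 1 was Aldoc (chr11:78322968-78327781, plus strand), at 4.01 and 7.54 CPM, a difference of 0.91 (0.66 to 1.17). Hif1a (chr12:73901375-73947530, plus strand) read 294 and 382 CPM, a difference of 0.38 (0.34 to 0.41). Over 17 alternatives to the processing, described at the end, the Hif1a difference ran from 0.28 to 0.38 and left this interval in 2. Of the enzymes, Pkm, which makes pyruvate, read 304 and 377 CPM, a difference of 0.31, and Gapdh 723 and 869 CPM, a difference of 0.27. With each T cell weighted equally, these 2 differences were 0.13 and 0.18, and with each thinned to 2000 UMIs 0.14 and 0.16. Mif read 284 and 332 CPM, a difference of 0.22 (0.19 to 0.26), and Ldha 467 and 486 CPM, a difference of 0.06 (0.03 to 0.08).

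The hypoxia response genes were mixed in T cells: of the 8 measured beside HIF and its hydroxylases, 5 were higher in LYZKL and 3 lower. Of all T cell genes 54.9% were higher and 45.1% lower, so these counts were near the background. The 3 lower genes were Ankrd37, Ero1l and P4ha1. Ankrd37 read 15.5 and 11.6 CPM, a difference of -0.42 (-0.57 to -0.26), Ero1l 64.6 and 54.0 CPM, a difference of -0.26 (-0.33 to -0.19), and P4ha1 66.5 and 56.0 CPM, a difference of -0.25 (-0.32 to -0.17). Egln3 read 43.9 and 40.5 CPM, a difference of -0.12 (-0.20 to -0.03). Pdk1 read 42.7 and 34.2 CPM, a difference of -0.32 (-0.41 to -0.23). Vegfa differed by 0.25 (-0.22 to 0.74), Bnip3 by 0.24 (-0.02 to 0.50) and Ddit4 by 0.06 (-0.01 to 0.12), so these, with Mif, were lower in LYZKL neutrophils but not in T cells. Slc2a1 differed by -0.11, Slc2a3 by -0.12, Hk2 by 0.02 and Pfkfb3 by 0.08. T cells held little neutrophil RNA, with S100a8 and S100a9 at 0.220% and 0.161% of their neutrophil level, which would give 0.407 and 0.121 CPM of Egln3. The B cell markers summed to 685 and 305 CPM in T cells and the plasma cell markers to 115 and 55.7 CPM, and their part in these differences was not tested.

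Division went with part of the list. T cells with a UMI of Mki67 or Top2a were 22.5% of the gate in WTKL and 28.8% in LYZKL. Of 32 measured genes 19 were higher in these cycling cells than in the rest in both libraries and 11 lower, where 40.4% of all genes were higher and 38.9% lower. At 1.5-fold 4 were higher (5.39% of all genes) and 3 lower (3.59%). Tpi1, Gapdh, Pgk1 and Pkm were the 4: Gapdh read 1030 against 586 CPM in WTKL and 1183 against 658 CPM in LYZKL, and Tpi1 114 against 58.4 CPM and 124 against 66.1 CPM. Pdk1, P4ha1 and Pfkfb4 were the 3 lower genes, with Pdk1 at 24.6 against 50.7 CPM in WTKL and 24.3 against 40.8 CPM in LYZKL. Gapdh, Pgk1 and Pkm act in the part of glycolysis that yields ATP and pyruvate, and Tpi1 feeds it. Within cycling cells Hif1a read 329 and 431 CPM, and within the others 279 and 349 CPM, so its difference between libraries was present in both.

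**Figure D5:**
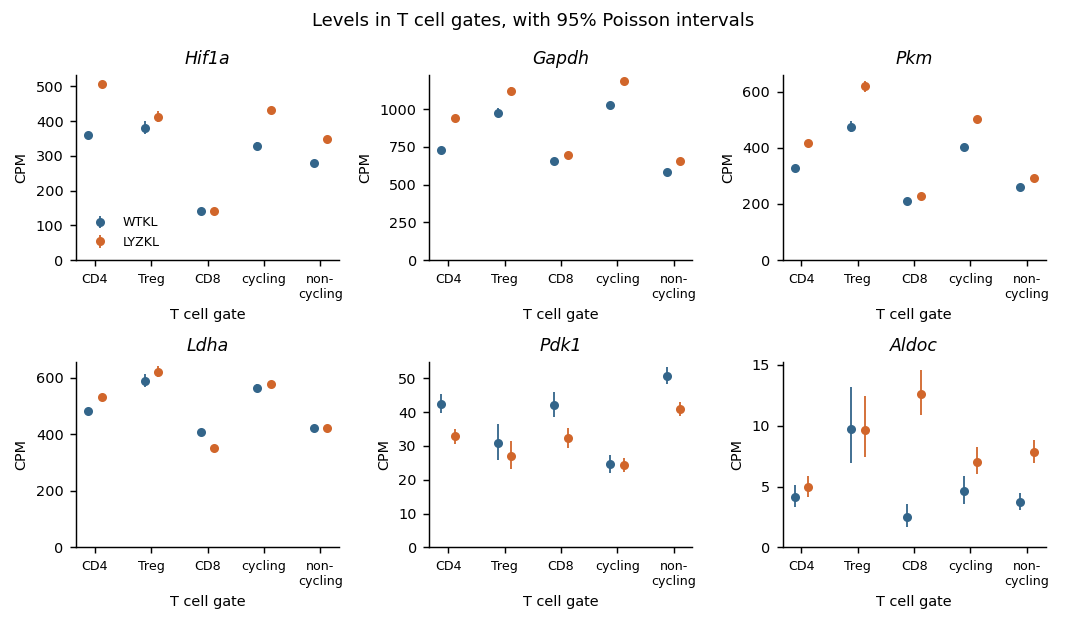
CPM (y axis) of 6 genes in 5 T cell gates (x axis) of WTKL and LYZKL, with exact Poisson 95% intervals for counting error as bars. Hif1a is lowest in CD8 cells and reads 361 and 506 CPM in CD4 cells, Gapdh is highest in cycling and regulatory cells, and Aldoc of CD8 cells reads 2.48 CPM in WTKL and 12.6 CPM in LYZKL.

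Hif1a differed between libraries in CD4 cells. It read 361 and 506 CPM in CD4 cells without Foxp3, a difference of 0.49 (0.45 to 0.53), 380 and 413 CPM in Foxp3 regulatory T cells, and 143 and 142 CPM in CD8 cells. In CD4 cells as a whole 17 of 32 genes were higher and 15 lower (47.3% and 52.7% of all genes), and 0 passed 1.5-fold in either direction, against 5.4% and 6.39% of all genes. Egln3 was higher in CD4 than in CD8 cells of both libraries, at 58.9 against 11.7 CPM and 57.0 against 10.6 CPM.

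In CD8 cells the counts of the list were near those of all genes, and other single genes of it differed. Of 32 measured, 21 were higher and 11 lower, where 65.4% of all CD8 genes were higher and 34.6% lower. At 1.5-fold 3 of 32 were higher in LYZKL and 0 lower, where 11.3% and 4.67% of all CD8 genes were. Aldoc read 2.48 and 12.6 CPM from 30 and 183 UMIs, a difference of 2.35 (1.79 to 2.96), Egln1 16.1 and 26.0 CPM, a difference of 0.69 (0.44 to 0.95), and Bnip3 4.88 and 7.87 CPM, a difference of 0.69 (0.23 to 1.17). CD8 cells with Xcl1 or Itga1, genes of tissue-resident cells, were 33% of the CD8 gate in WTKL and 55.0% in LYZKL. Within them Aldoc read 2.88 and 16.3 CPM and Egln1 16.3 and 26.6 CPM, while Bnip3 read 7.20 and 7.90 CPM, with an interval of -0.51 to 0.81. Epithelial markers summed to 44.7 and 90.9 CPM in CD8 cells, and the part of this in their differences was not tested. Compared with CD4 cells, CD8 cells were lower in 21 of 32 genes in both libraries and higher in 4, where 35.6% of all genes were lower and 28.1% higher. By 1.5-fold 5 were lower (6.85% of all genes), Hif1a, Egln3, Ero1l, Ndrg1 and Pkm, and 1 was higher (5.93%), Slc2a3.

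Regulatory T cells had higher levels of much of the list than CD4 cells without Foxp3. Of 31 measured genes 19 were higher in both libraries and 6 lower, where 44.1% of all genes were higher and 30.5% lower. At 1.5-fold 0 were lower (5.2% of all genes) and 6 higher (7.81%): Slc16a3, Slc2a3, Aldoc, Tpi1, Ddit4 and Ndrg1. Ndrg1 read 40.3 against 14.9 CPM in WTKL and 44.2 against 16.3 CPM in LYZKL, and Ddit4 124 against 62.8 CPM and 122 against 71.7 CPM. The B cell markers also differed between these gates, at 1076 against 552 CPM in WTKL and 796 against 225 CPM in LYZKL, as did macrophage markers, at 464 against 355 CPM and 491 against 352 CPM. Their part in the contrast was not tested. Between libraries, Treg cells had 15 genes higher and 15 lower (46.9% and 53.1% of all genes), with 0 higher and 1 lower by 1.5-fold (3.28% and 4.99% of all genes). That 1 was Ankrd37, at 18.0 and 9.51 CPM, a difference of -0.92 (-1.44 to -0.41). Pkm read 476 and 619 CPM in Treg cells, a difference of 0.38 (0.30 to 0.46), and Mif 326 and 412 CPM, a difference of 0.34 (0.24 to 0.43).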

How the data were processed

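The libraries WTKL and LYZKL were analysed, 1 per group, with groups taken from the sample titles. The authors deposited raw UMI counts per gene and barcode, made with Cell Ranger 6.1.2 on mm10 per the submitters' processing notes. How barcodes were called is not given in the sources used here. The matrices were read as deposited with Python 3.11.15, numpy 2.4.6, scipy 1.17.1 and pandas 2.3.3. Barcodes under 500 detected genes or above 10% mitochondrial UMIs were dropped. A cell entered the neutrophil, macrophage, B or T gate with a UMI of at least 3 of that type's 8 markers and at most 1 marker of each other type. UMIs were summed per gate and library and divided by the gate's total. Differences were log2 CPM ratios with exact conditional binomial intervals and no test, since there was 1 library per group. The interval code was tested on simulated data.

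The genes, lists, gates and thresholds were chosen with earlier results of these data known. Any of the 33 genes could be named. Full values went to those past 1.5-fold with at least 100 UMIs in a gate, at most 8 per direction, and to 12 genes set in the design (Slc2a1, Slc2a3, Hk2, Pfkfb3, Gapdh, Ldha, Pdk1, Hif1a, Vegfa, Bnip3, Ddit4 and Mif). Neutrophils with neither gene set, the finer CD8 gate, the wider gate and the thinned shares were added after the data were seen. Doublets were not removed except by the gate rule. Removal of the barcodes with the highest Scrublet scores, from scanpy 1.11.5, was an alternative. The shares removed, 9.60% and 10.8%, were set beforehand from the number of cells and are not detected doublet rates. Scaling with edgeR 4.0.16 was another. Aldoa has 2 gene identifiers in the matrix, and the first was used, since the second had at most 1 UMI in a gate. Eno1 has the near-identical copy Eno1b and several glycolytic genes have processed pseudogenes, so their counts are uncertain to that extent. Gene positions and promoters are on GRCm38.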

Additional observations from a re-analysis of the deposited data

Results flagged for a closer look

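Of the genes measured in both gates, 8 had intervals for counting error on opposite sides of 0 in neutrophils and macrophages. These differences between cell types rest on 1 library per group and were not tested. The log2 difference between LYZKL and WTKL in macrophages minus that in neutrophils was 1.24 for Mif, 1.14 for Pfkl, 1.02 for Tpi1, 0.97 for Bnip3, 0.68 for Aldoa, 0.56 for Slc16a3 and 0.38 for Gapdh, all higher in macrophages and lower in neutrophils of LYZKL. It was -1.51 for Hk1, which was lower in LYZKL macrophages and higher in LYZKL neutrophils. Beside these, the share of Saa3-type cells in the macrophage gate was 41.7% and 70.5%, and the part of this in the differences was not tested.

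Within neutrophils, Ankrd37 and Ldha moved in opposite directions in granule-type and Ccl3-type cells. The difference in granule-type cells minus that in Ccl3-type cells was 3.29 for Ankrd37, with 4 and 32 UMIs in granule-type cells, and 0.47 for Ldha. These too were not tested.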

How the results depend on the processing

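Each of 17 alternatives was run, of which dropping barcodes found in both libraries and the wider gate (most markers, by a lead of 2) were chosen after the data were seen. Over them the neutrophil count lower by 1.5-fold ranged from 6 to 11 and the neutrophil median from -0.46 to -0.26. Only some genes were followed singly. Pdk1 in neutrophils, Egln3, Ankrd37 and Ddit4 in macrophages and Pfkfb4 in B cells were not among them. No followed gene whose interval excluded 0 changed sign. Ldha in neutrophils, whose interval included 0, ran from -0.15 to 0.01. The counts of few genes moved. With no marker of another type allowed, 1 gene was higher in neutrophils, 0 were lower in macrophages, the macrophage median was 0.57 over 12 genes and 2 were lower in B cells. With up to 2 such markers, macrophages had 1 higher and 0 lower and T cells 2 higher. The wider gate gave macrophages 0 higher and 0 lower and B cells 2 higher. Thinning to 2000 UMIs gave 0 lower in macrophages, 2 lower in B cells and 2 higher in T cells. The mean of per-cell CPM gave 2 higher and 2 lower in B cells. A minimum of 10 UMIs per gene gave 3 higher and 2 lower in B cells and 2 higher in T cells, and one of 100 UMIs gave 2 higher in macrophages and 0 in either direction in B cells. The causes were not tested. No paired analysis was possible because each group is 1 library. Depth limits the macrophage and B cell values most, from 120 and 173 and from 452 and 336 cells.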
